A study of Homo sapiens with 24 samples.

Results

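The heat shock and J-domain chaperones are 67 of the 20037 protein-coding genes that RefSeq places on chromosomes 1 to 22, X and Y. They were taken by symbol: genes whose names start with DNAJ, HSPA, HSPB, HSPH or HSP90, without HSPA5, HSPA9 and DNAJC19. Symbols that start with HSPBAP or HSPBP were also left out. The choice was made with earlier results of these data known. The data are Myc CUT&Tag peak lists from the established human cell line MIA PaCa-2, of pancreatic carcinoma origin, carrying here a doxycycline-inducible (teton) MED30, a subunit of the Mediator complex that links transcription factors to RNA polymerase II. In CUT&Tag an antibody directs a transposase to its target, and the DNA it cuts there piles up as a peak in the sequencing. Of 24 samples in the series, 2 had lists that were used: 1 library titled day 5 of doxycycline and 1 library without doxycycline, both from the cells with inducible MED30. The other 22, among them control IgG libraries, were not analysed here, so no value was set against a control antibody. The day is that of the titles, since the protocol text common to the samples gives 2 days of induction. With 1 library per condition no difference has a replicate check, no test was possible, and every comparison is between these libraries. The sources used here do not say whether the line with inducible MED30 is 1 clone, and the level of MED30 was not measured here.

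Chaperones help other proteins to fold and to leave aggregates. HSP70 proteins bind exposed stretches of an unfolded client in cycles of ATP hydrolysis, J-domain proteins (the DNAJ families) bring clients and start the hydrolysis, and HSP110 proteins exchange the nucleotide. HSP90 takes over late clients such as kinases and steroid receptors, and small heat shock proteins hold unfolded clients without ATP. Many of these genes are induced by heat through the factor HSF1, which binds repeats of GAA in alternating orientation, whereas Myc with its partner MAX binds E-boxes, of which CACGTG is the best known. The symbol rule is wider than the cytosol: 13 of the 67 were listed as residents of the endoplasmic reticulum or its membrane, among them HSP90B1, and 4 as mitochondrial (DNAJA3, DNAJC11, DNAJC15 and DNAJC30). Myc peaks give binding and no protein location or expression, so the location in the name could not be checked with these data. Of markers of the line and of other cell types, VIM had a Myc peak in both libraries and KRT8, KRT18 and KRT19 had none, and none of 7 acinar and endocrine or 4 leukocyte genes had one.

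The promoters of the chaperones with the strongest shared Myc peaks, and of the classical heat shock genes, are shown for reference, since the motif counts below were made in windows that hold them. The Myc peaks do not reach the stretches of HSP90AB1, HSPA1A and HSPA1B. Each is the 250 bases before an annotated start, written 5' to 3' on the gene's strand from RefSeq GRCh38.p14. Capitals mark every match, on either strand, to the E-box CACGTG, to its weaker variant CACGCG, or to GAANNTTC or TTCNNGAA, which are adjoining GAA units of a heat shock element, where N is any base and overlapping matches run together. Where a gene has several annotated starts near a day 5 peak, the one with most matches is shown. DNAJB9, HSPA1A and HSPA1B were added after their values were seen.
HSP90AB1: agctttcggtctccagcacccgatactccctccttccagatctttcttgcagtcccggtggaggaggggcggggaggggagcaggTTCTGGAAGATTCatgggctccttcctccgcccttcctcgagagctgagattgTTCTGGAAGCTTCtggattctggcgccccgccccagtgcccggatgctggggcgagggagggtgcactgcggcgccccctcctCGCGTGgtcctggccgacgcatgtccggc
HSPA8: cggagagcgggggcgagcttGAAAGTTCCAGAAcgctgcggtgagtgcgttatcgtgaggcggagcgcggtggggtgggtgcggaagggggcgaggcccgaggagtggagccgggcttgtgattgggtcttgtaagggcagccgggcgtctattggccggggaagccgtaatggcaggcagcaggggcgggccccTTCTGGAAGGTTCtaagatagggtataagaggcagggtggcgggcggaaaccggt
DNAJB1: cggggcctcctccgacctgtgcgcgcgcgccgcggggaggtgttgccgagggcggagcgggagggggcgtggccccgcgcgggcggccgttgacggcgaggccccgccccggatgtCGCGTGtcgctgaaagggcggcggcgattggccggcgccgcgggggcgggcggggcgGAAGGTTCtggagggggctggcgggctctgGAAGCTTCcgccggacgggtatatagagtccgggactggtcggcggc
HSPA1A: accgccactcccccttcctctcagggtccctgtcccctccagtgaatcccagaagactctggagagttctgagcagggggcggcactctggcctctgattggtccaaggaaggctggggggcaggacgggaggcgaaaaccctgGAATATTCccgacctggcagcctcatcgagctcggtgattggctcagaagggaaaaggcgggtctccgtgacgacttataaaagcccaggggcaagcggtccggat
HSPA1B: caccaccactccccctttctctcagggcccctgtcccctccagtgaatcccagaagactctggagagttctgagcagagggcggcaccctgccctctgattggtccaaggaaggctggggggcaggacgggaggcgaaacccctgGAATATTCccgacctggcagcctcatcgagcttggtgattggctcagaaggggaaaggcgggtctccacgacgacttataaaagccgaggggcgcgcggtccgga
HSP90B1: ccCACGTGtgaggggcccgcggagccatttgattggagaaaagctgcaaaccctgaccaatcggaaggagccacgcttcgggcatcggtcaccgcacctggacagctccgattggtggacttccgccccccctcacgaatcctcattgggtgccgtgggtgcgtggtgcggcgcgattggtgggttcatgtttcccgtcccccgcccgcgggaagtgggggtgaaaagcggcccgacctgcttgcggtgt
DNAJB9: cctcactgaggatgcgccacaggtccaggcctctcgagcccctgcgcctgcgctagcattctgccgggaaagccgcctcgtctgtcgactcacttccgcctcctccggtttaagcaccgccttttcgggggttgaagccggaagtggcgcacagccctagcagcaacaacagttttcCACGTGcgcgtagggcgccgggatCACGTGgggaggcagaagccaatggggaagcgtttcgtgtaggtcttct
DNAJC9: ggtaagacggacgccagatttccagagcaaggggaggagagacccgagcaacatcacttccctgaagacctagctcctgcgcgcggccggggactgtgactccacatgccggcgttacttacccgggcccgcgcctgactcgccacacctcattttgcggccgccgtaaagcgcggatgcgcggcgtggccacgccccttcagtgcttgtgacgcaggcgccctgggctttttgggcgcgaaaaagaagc
HSPH1: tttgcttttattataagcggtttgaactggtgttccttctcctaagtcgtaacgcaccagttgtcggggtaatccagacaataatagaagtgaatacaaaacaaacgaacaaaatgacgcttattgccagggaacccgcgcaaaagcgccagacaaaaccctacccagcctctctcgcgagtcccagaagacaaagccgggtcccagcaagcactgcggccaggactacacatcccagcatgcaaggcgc
These stretches lie at chr6:44247693-44247942 on the plus strand (HSP90AB1), chr11:123062137-123062386 minus (HSPA8), chr19:14518398-14518647 minus (DNAJB1), chr6:31815293-31815542 plus (HSPA1A) and chr6:31827488-31827737 plus (HSPA1B). The others lie at chr12:103930160-103930409 plus (HSP90B1), chr7:108569624-108569873 plus (DNAJB9), chr10:73247256-73247505 minus (DNAJC9) and chr13:31162389-31162638 minus (HSPH1).

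Myc peaks reached 32 of the 67 chaperone genes at day 5 and 14 without doxycycline. A gene counted when any part of a listed peak came within 1 kb of either end of its span. The shares were 47.8% at day 5 (exact binomial 95% interval 35.4 to 60.3) and 20.9% without doxycycline (11.9 to 32.6). Among all coding genes 27.4% had such a peak at day 5 and 14.4% without doxycycline. The intervals treat genes as independent, whereas the 32 genes at day 5 rest on 30 distinct peaks, and the difference from all coding genes was not tested. Both lists held 13 of the chaperones (19.4%, against 12.9% of all coding genes), 19 were listed at day 5 only (28.4% against 14.5%) and 1 without doxycycline only (1.49% against 1.57%). The other 34, among them DNAJB1 with peaks only inside its span, had no peak at a gene end in either list. The day 5 list is longer, with 6727 peaks on these chromosomes against 3472 without doxycycline. With the day 5 list cut to its 3472 best peaks by rank, 14 chaperones had one at day 5 and 14 without doxycycline, so the larger number at day 5 was not present at equal list lengths. The chaperone share was then 20.9% in each library, against 15.7% of all coding genes at day 5 and 14.4% without doxycycline, and the interval of 11.9 to 32.6 includes both background shares. Of these chaperones 8 were in both lists (11.9%, against 10.1% of all coding genes), 6 at day 5 only (8.96% against 5.55%) and 6 without doxycycline only (8.96% against 4.30%). The last 6 were DNAJA1, DNAJA2, DNAJC17, DNAJC27, HSPA4 and HSPA6. All of them but DNAJC27 had a peak in the full day 5 list, which the cut removed.

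**Figure D1:**
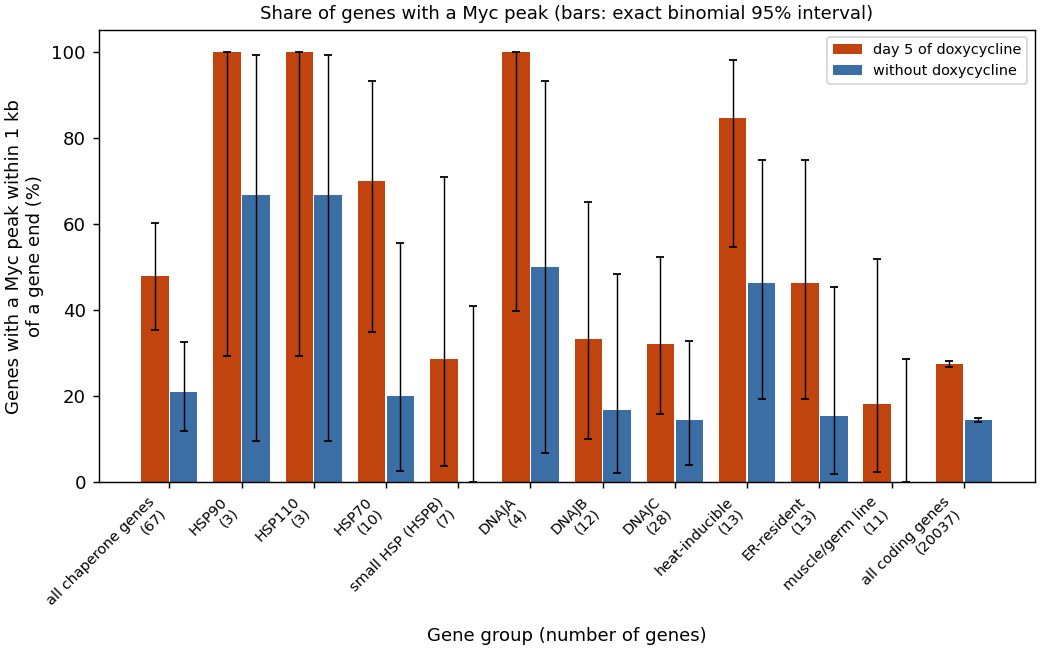
Share of genes (%, vertical axis) with a Myc peak within 1 kb of a gene end at day 5 (red) and without doxycycline (blue), for chaperone families and lists and for all coding genes; error bars are exact binomial 95% intervals and numbers of genes stand in parentheses. All 67 chaperones stand at 47.8% and 20.9%, all coding genes at 27.4% and 14.4%, and the intervals of the small families are wide.

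The 3 HSP90 genes all had a day 5 peak and 2 had one without doxycycline, with all coding genes at 27.4% and 14.4%. HSP90AB1, the constitutive cytosolic HSP90, carried the highest-ranked peak of any chaperone at day 5, rank 350 by the authors' q-value, with 39 fragments over its summit (exact Poisson 95% interval 27.7 to 53.3), against 23 without doxycycline (14.6 to 34.5), rank 513. Its gene spans 44246194 to 44253883 on chromosome 6 in hg38, and the peaks lay at 44246097 to 44247535 at day 5 and 44246537 to 44247535 without doxycycline, at the 5' end. Neither peak reached the 250 bases printed above, which precede the innermost of its 3 annotated starts: the summits lay at -1276 bp from that start at day 5 and at -1032 bp without doxycycline, a minus meaning upstream. From the nearest annotated start they lay at -434 and -190 bp. HSP90B1, the HSP90 of the endoplasmic reticulum, had 36 fragments at day 5 (25.2 to 49.8) and 29 without doxycycline (19.4 to 41.6). Its peak ranked 410 at day 5 and 173 without doxycycline, where no chaperone ranked higher, with summits at -330 and -666 bp. All 250 bases of its printed promoter lay inside the day 5 peak and 108 inside the peak without doxycycline. HSP90AA1, the inducible cytosolic HSP90, was listed at day 5 only, with 16 fragments (9.15 to 26.0) and rank 1917 at the outer end of a span that reaches from 102080742 to 102139749 on chromosome 14. That summit was nearer the end of WDR20. A separate day 5 peak of 11 fragments lay at -476 bp from the inner HSP90AA1 start, which the distance to the span ends did not count.

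Of 10 HSP70 genes, 7 had a peak at day 5 (70%, against 27.4% of all coding genes) and 2 without doxycycline (20%, interval 2.52 to 55.6, near the 14.4% of all coding genes). HSPA8, the constitutive HSC70, had 20 fragments at day 5 (12.2 to 30.9) and 10 without doxycycline (4.8 to 18.4), with ranks 1822 and 2268. Its summits lay at -226 bp at day 5 and -308 bp without doxycycline, and the day 5 peak covered the whole printed promoter. HSPA6, a strictly heat-induced HSP70, had 8 fragments at day 5 and 5 without doxycycline, in peaks that lay nearer the end of FCGR2A. The others were at day 5 only. HSPA1A, the main heat-induced HSP70, and its divergent neighbour HSPA1L, a testis HSP70, shared 1 peak of 10 fragments (4.8 to 18.4), rank 3611. Its summit was 80 bp inside HSPA1L and at -340 bp from HSPA1A, and the peak covered none of the 250 bases printed for HSPA1A. HSPA1B, whose printed promoter matches that of HSPA1A at 235 of 251 aligned positions (93.6%), had no peak in either list, the nearest lying 12.45 kb from its ends at day 5 and 347.23 kb without doxycycline. How reads that match both copies were treated is not given in the sources used here, so a difference between the copies is uncertain. In addition, 87 peaks at day 5 and 30 without doxycycline lay on alternate haplotypes of this region and were given to no gene.

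HSPA13, of the endoplasmic reticulum, had 9 day 5 fragments (4.12 to 17.1), rank 2402, with the summit at -481 bp, and HSPA14, a ribosome-associated HSP70, had 8 in a peak that also reached MSANTD7 and CDNF. HSPA12A, a distant HSP70 relative, had 6 in a peak nearer ENO4. HSPA12B and HSPA2, which is best known from the germ line, had none. The 3 HSP110 genes HSPH1, HSPA4 and HSPA4L all had a day 5 peak and 2 had one without doxycycline, with the same shares of all coding genes. HSPH1 had 19 fragments at day 5 (11.4 to 29.7) and 17 without doxycycline (9.9 to 27.2), at ranks 837 and 527 and 238 and 297 bp inside its start, the closest pair of values in relative terms among the shared chaperones. HSPA4 had 13 at day 5 (6.92 to 22.2) and 8 without doxycycline (3.45 to 15.8), 615 and 411 bp inside its start, and HSPA4L had 9 at day 5 only.

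Of the small heat shock proteins, 2 of 7 HSPB genes had a peak at day 5 (28.6%, near the 27.4% of all coding genes) and 0 of 7 without doxycycline, against 14.4% of all coding genes. The exact binomial interval of that 0 reaches 41%. HSPB1 (HSP27) had 15 fragments at day 5 (8.4 to 24.7), rank 4223, with the summit 1007 bp inside the gene, past its start. That summit was nearer the 3' end of this gene of 1.62 kb, at 612 bp from it. HSPB6, a muscle protein, was marked only by a peak that began 0.99 kb away, with 10 fragments, rank 3527, and a summit nearer PROSER3. HSPB8, a partner of the co-chaperone BAG3 in autophagy, had none, and its nearest peaks were 473.02 kb away at day 5 and 999.76 kb without doxycycline. HSPB2, HSPB3, HSPB7 and HSPB9 had none either. In a list of 11 chaperones known mainly from muscle or the germ line, HSPB6 and HSPA1L had a day 5 peak (18.2%, against 27.4% of all coding genes) and none had one without doxycycline (against 14.4%).

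**Figure D2:**
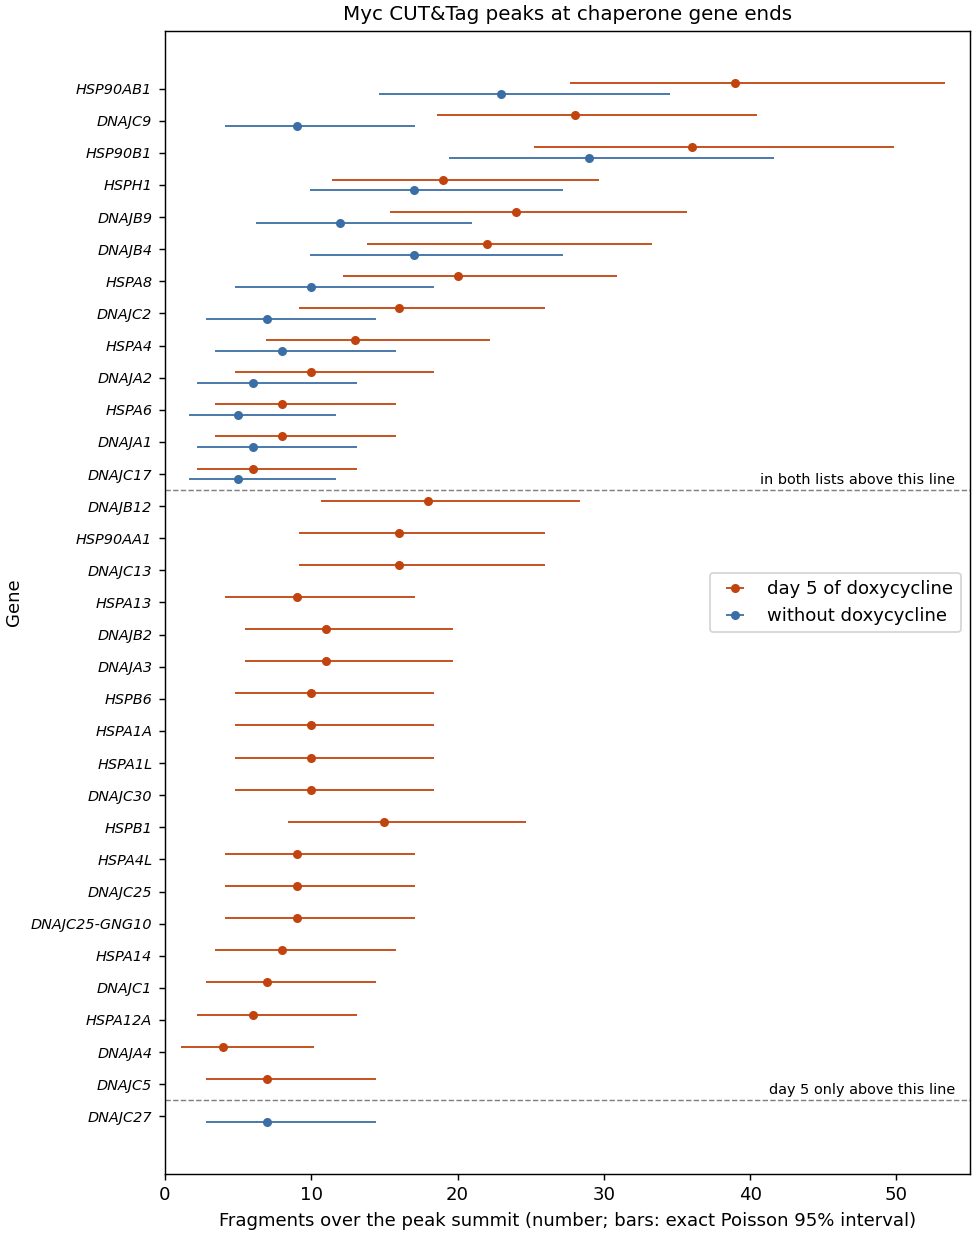
Fragments over the summit of the highest-ranked Myc peak (number, horizontal axis) at each of the 33 chaperone genes with a peak, at day 5 (red, upper) and without doxycycline (blue, lower); bars are exact Poisson 95% intervals and genes run by class and day 5 rank. The 13 shared genes run from 6 to 39 fragments at day 5 and from 5 to 29 without doxycycline, and only for DNAJC9 do the intervals stand apart.

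All 4 DNAJA genes, the J-proteins most like bacterial DnaJ, had a day 5 peak, and DNAJA1 and DNAJA2 also had one without doxycycline, where all coding genes stood at 27.4% and 14.4%. The fragments were few: DNAJA2 had 10 at day 5 and 6 without doxycycline, with summits at -65 and -362 bp, and DNAJA1 had 8 at day 5 and 6 without doxycycline in a peak nearer APTX. DNAJA3, the mitochondrial Tid1, had 11 (rank 3170, -273 bp) and DNAJA4 4, both at day 5 only. Of 12 DNAJB genes, 4 had a peak at day 5 and 2 without doxycycline (33.3% and 16.7%, near the 27.4% and 14.4% of all coding genes). DNAJB9 (ERdj4), which regulates the stress sensor IRE1 in the endoplasmic reticulum, had 24 fragments at day 5 (15.4 to 35.7) and 12 without doxycycline (6.2 to 21.0). Its peaks ranked 929 and 1254, with summits at -5 bp at day 5 and -96 bp without doxycycline. Both peaks covered its whole printed promoter, which holds CACGTG at -73 and at -49 from the start. The peak without doxycycline lay nearer THAP5, which shares this promoter region. DNAJB4, a heat-inducible J-protein, had 22 fragments at day 5 (13.8 to 33.3) and 17 without doxycycline (9.9 to 27.2), in peaks that also reached FUBP1 and ranked 1237 and 748, with summits at -296 and 147 bp. At day 5 only were DNAJB12, a membrane J-protein of the endoplasmic reticulum, with 18 fragments (10.7 to 28.4) at 56 bp, rank 1316, and DNAJB2, best known from neurons, with 11 at 72 bp, rank 2934.

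DNAJB1, the classical HSP40, was not counted because its span, 14514769 to 14560391 on chromosome 19, ends more than 1 kb from its peaks. Around its annotated inner starts there was Myc signal in both libraries. A peak at -297 bp from 1 inner start had 18 fragments at day 5 (rank 1333), and an overlapping peak at -360 bp from the same start had 18 without doxycycline (rank 460). A further day 5 peak of 17 fragments lay 155 bp inside the start whose promoter is printed above, and no peak was listed there without doxycycline. Counted by annotated starts in place of span ends, 31 of the 60 chaperones with a start in the RefSeq promoter table had a peak at day 5 and 15 without doxycycline. The shares were 51.7% and 25%, against 30.1% and 16.0% of 15843 coding genes with a start in that table, and DNAJB1 was the 1 chaperone added in each library. By this count 14 were in both (14.3% of all), 17 at day 5 only (15.7% of all), 1 without doxycycline only (1.63% of all) and 32 in either (31.7% of all). DNAJB6, a suppressor of aggregation, had no peak, the nearest lying 26.44 kb away at day 5 and 26.25 kb without doxycycline. No peak was listed for DNAJB5, DNAJB7, DNAJB8, DNAJB11, DNAJB13 or DNAJB14.

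Of 28 DNAJC genes, 9 had a peak at day 5 and 4 without doxycycline (32.1% and 14.3%, near the 27.4% and 14.4% of all coding genes). DNAJC9, a J-protein that also acts as a chaperone of histones H3 and H4, differed most. It had 28 fragments at day 5 (18.6 to 40.5) and 9 without doxycycline (4.12 to 17.1), and its peak ranked 356 of 6727 peaks at day 5 and 1693 of 3472 without doxycycline. It was the 1 of 13 shared chaperones whose Poisson intervals did not overlap, where 4.07% of 2580 coding genes in both lists had day 5 above in that way and 0.00% had it above without doxycycline. The caller's local background at this summit was 1.66 fragments at day 5 and 0.552 without doxycycline, and its part in the difference was not tested. The summits of DNAJC9 lay 185 bp inside its start at day 5 and 5 bp inside it without doxycycline. DNAJC2, the ribosome-associated zuotin homologue, had 16 fragments at day 5 (9.15 to 26.0) and 7 without doxycycline (2.81 to 14.4), at ranks 2640 and 3354 and at -4 and -89 bp. DNAJC17, a splicing-linked J-protein, had 6 at day 5 and 5 without doxycycline, in peaks shared with ZFYVE19.

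At day 5 only were DNAJC13, an endosomal J-protein, with 16 fragments (9.15 to 26.0) and a summit at -2 bp, rank 2077, and DNAJC30, mitochondrial, with 10 in a peak nearer BUD23. DNAJC25 and the read-through gene DNAJC25-GNG10 have the same start and shared 1 peak of 9 fragments. DNAJC5, the cysteine string protein of synaptic vesicles, had 7, and DNAJC1, of the endoplasmic reticulum, had 7. DNAJC27, which carries both a J-domain and a Rab-like GTPase, was the only chaperone listed without doxycycline only, with 7 fragments (2.81 to 14.4), rank 2601, 607 bp inside an annotated start. The nearest day 5 peak lay 22.49 kb from it. DNAJC21, which acts in maturation of the large ribosomal subunit, had no peak, the nearest lying 13.91 kb away in both lists. The other 17 DNAJC genes without a peak were DNAJC3, DNAJC4, DNAJC5B, DNAJC5G, DNAJC6, DNAJC7, DNAJC8, DNAJC10, DNAJC11, DNAJC12, DNAJC14, DNAJC15, DNAJC16, DNAJC18, DNAJC22, DNAJC24 and DNAJC28. Absence from a list means that no peak passed the authors' cut-off there, and weaker binding may remain.

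Grouped by place and task, the counts are small and stand beside 27.4% of all coding genes at day 5 and 14.4% without doxycycline. Of the 13 residents of the endoplasmic reticulum, 6 had a peak at day 5 (46.2%) and 2, HSP90B1 and DNAJB9, without doxycycline (15.4%, near the share of all coding genes). Of the 4 mitochondrial chaperones among the 67, DNAJA3 and DNAJC30 had one (50%), at day 5 only. HSPA9, a mitochondrial HSP70 that the symbol rule leaves out, had 57 fragments at day 5 and 54 without doxycycline. Of 7 that act on RNA, ribosomes or histones, DNAJC2, DNAJC9, DNAJC17 and HSPA14 had a peak at day 5 (57.1%), and all of these but HSPA14 had one without doxycycline (42.9%). Of 5 in endocytosis or vesicle traffic, DNAJC5 and DNAJC13 had one (40%), at day 5 only. For the 34 chaperones with no peak at a gene end, the nearest peak lay a median of 28.8 kb from those ends at day 5. Without doxycycline the median was 119 kb. The day 5 list is longer, with 6727 peaks against 3472, which shortens such distances for any genes. The distances of other coding genes without a peak were not measured. DNAJB1, with peaks inside its span, is among the 34.

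Among the 13 shared chaperones, the summit held more fragments at day 5 in all 13, by a ratio of 1.12 to 3.11 with a median of 1.62. The same ratio had a median of 1.43 (quartiles 1.13 and 1.82) over all 2580 coding genes in both lists, and was above 1 in 81.5% of them, so a ratio above 1 was the rule in these libraries. These ratios are not corrected for depth, which the lists do not give. The median peak width of the 13 was 735 bp at day 5 and 531 bp without doxycycline, close to the 731 and 544 bp of all 2580 genes in both lists, and the summits of the pairs lay 59 to 443 bp apart.

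**Figure D3:**
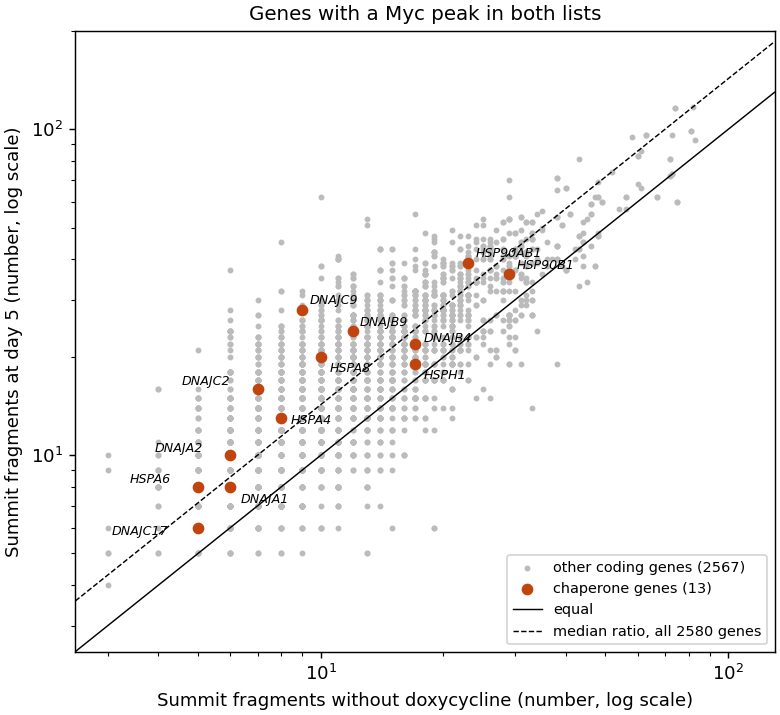
Summit fragments at day 5 (vertical axis, number, log scale) against those without doxycycline (horizontal axis, number, log scale) for the 2580 coding genes with a peak in both lists, chaperones in red; the solid line marks equal values and the dashed line the median ratio of 1.43. The 13 chaperones all lie above the line of equal values, DNAJC9 farthest.

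Most chaperone peaks were of middle or low rank in their lists. At day 5 the median chaperone peak had 10 fragments, against 12 for all genes with a peak, and 3 of 32 (9.38%) were in the top 10% of the list, against 12.8% of all genes with a peak: HSP90AB1, DNAJC9 and HSP90B1. Without doxycycline the median was 8.5 fragments, against 11 for all such genes, and 1 of 14, HSP90B1, was in the top 10% (7.14%, against 12.1%). The 19 genes listed at day 5 only ran from 4 to 18 fragments with a median of 10, which was also the median of all 2906 coding genes of that class. At the 1 kb limit, HSPB6 was just inside with its peak 0.99 kb away, and DNAJC16 was just outside at 1.84 kb.

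Summits sat close to gene starts, which the counting rule sets in part. A gene counted only with a peak within 1 kb of a gene end, and all coding genes were taken by the same rule. Of 30 chaperones with a day 5 peak and an annotated start, 26 had the summit within 500 bp of one, against 82.0% of all such genes, and of 14 without doxycycline 12 did, against 81.2%. At day 5 the summit was upstream of the start in 19 and downstream in 11, and without doxycycline it was upstream in 9 and downstream in 5. For 14 of the 32 day 5 genes (43.8%, against 39.7% of all genes with a peak) the same peak also reached the end of another coding gene, and for 5 of 14 without doxycycline (35.7%, against 42.3%). With each peak given only to the nearest gene end, 24 chaperones had one at day 5 and 11 without doxycycline (35.8% and 16.4%, against 22.3% and 11.5% of all coding genes).

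**Figure D4:**
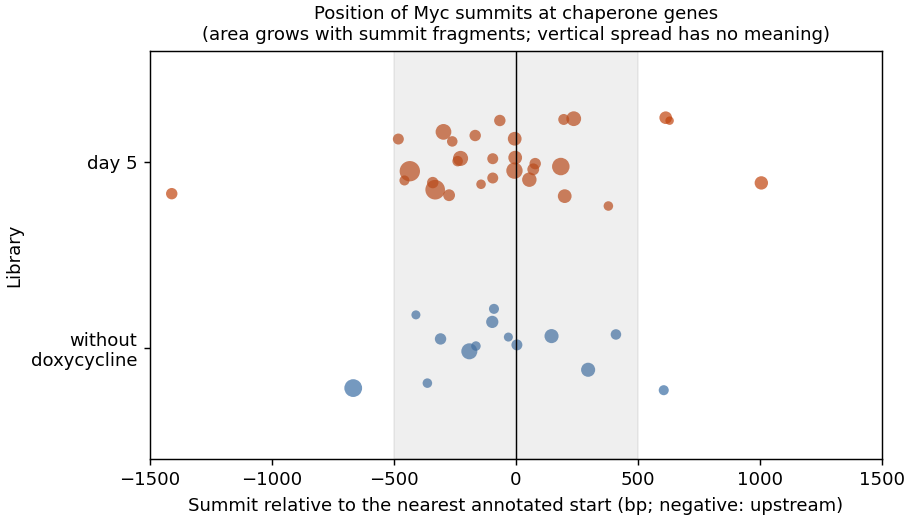
Distance of the Myc summit from the nearest annotated start (bp, horizontal axis, negative upstream) for 30 chaperone genes at day 5 (red, upper row) and 14 without doxycycline (blue, lower row); circle area grows with summit fragments and the grey band marks 500 bp to either side. In all, 26 of 30 and 12 of 14 summits lie in the band, with HSPB6 and HSPB1 farthest at -1410 and 1007 bp.

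In a list of 13 heat-inducible chaperones, 11 had a peak at day 5 (84.6%, against 27.4% of all coding genes). Without doxycycline 6 had one (46.2% against 14.4%). The day 5 exceptions were HSPA1B and DNAJB1, the latter with peaks only inside its span. The list was chosen with earlier results of these data known, and the shares depend on its members. It holds HSP90AB1 and HSPA8, called constitutive above. It leaves out DNAJB6, which had no peak and a heat shock element near its start. With each peak given only to the nearest gene end, HSPA1A, HSPA6, DNAJA1 and HSP90AA1 had no day 5 peak left. HSPA6 and DNAJA1 then had none without doxycycline either. All coding genes stood at 22.3% at day 5 and 11.5% without doxycycline by that count. At equal list lengths 5 of the 13 had a day 5 peak, against 15.7% of all coding genes: HSP90AA1, HSP90AB1, HSPA8, HSPH1 and DNAJB4. HSP90AA1 was kept only by its outer peak, nearer WDR20, since the peak at its inner start ranked 4575. Windows of 300 bases around annotated starts were searched for the motifs capitalised above, a match being a description of letters and not a shown site. A gene with several annotated starts gave several windows, and DNAJC25 and DNAJC25-GNG10 gave the same window, so windows are not independent. CACGTG or CACGCG was found in 8 of the 42 chaperone windows with a day 5 peak within 1 kb (19.0%) and in 10 of 32 chaperone windows with no peak (31.2%). Over all coding genes it was found in 31.6% of 6197 windows with a day 5 peak and 16.6% of 15681 windows with none. Without doxycycline 6 of 18 chaperone windows with a peak held it (33.3%), against 34.3% over all coding genes.

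A heat shock element of 3 adjoining GAA units in alternating orientation was found in 6 of the 76 chaperone windows (7.89%), against 0.405% of 22199 windows of all coding genes. They belonged to HSP90AB1, HSP90AA1, HSPA6, HSPA8, DNAJA1 and DNAJB6, and 5 of the 6, all but that of DNAJB6, had a day 5 peak within 1 kb, as had 42 of all 76 chaperone windows. Without doxycycline 4 of the 6 had a peak within 1 kb, as had 18 of the 76. In the printed promoters HSPA8 has gaaagttccagaa and ttctggaaggttc, beginning at -230 and -55 from its start, and HSP90AB1 has ttctggaagattc and ttctggaagcttc at -165 and -112. Windows of genes with a day 5 peak held such an element in 0.355% of cases over all coding genes, and windows without a peak in 0.427%. HSP90B1 has a single CACGTG, at -248 from its start, and neither DNAJC9 nor HSPH1 has any of the 4 motifs in its window.

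Partners of these chaperones that the symbol rule does not take are given beside the 27.4% of all coding genes at day 5 and the 14.4% without doxycycline. Of 15 HSP90 co-chaperones, 8 had a peak at day 5 (53.3%) and 7 without doxycycline (46.7%), led in rank by SUGT1, an adaptor, with 23 fragments at day 5 and 22 without doxycycline. STIP1, which hands clients from HSP70 to HSP90, had 28 at day 5 and 21 without doxycycline. Of 11 nucleotide exchange factors and partners of HSP70, 9 had a peak at day 5 (81.8%) and 5 without doxycycline (45.5%). SGTA, which captures tail-anchored proteins, had 49 fragments at day 5 (36.3 to 64.8) and 21 without doxycycline (13.0 to 32.1), and its day 5 value was above that of each of the 67 chaperones. In a list of 5 with the heat shock factors and the HSF1-binding HSBP1, 3 had a peak at day 5 (60%) and 1 without doxycycline (20%). HSF1 (9 fragments), HSF2 (5) and HSBP1 (8) had it at day 5 only and HSF4 (13) without doxycycline only. HSF5 had none. The day 5 peaks ranked 6078 (HSF1), 6373 (HSF2) and 4001 (HSBP1), outside the 3472 kept at equal list lengths. Of 4 J-proteins with other names HSCB had a peak, with 22 fragments at day 5 and 10 without doxycycline. The chaperonin containing TCP1, another folding machine of the cytosol, had peaks at 8 of 8 genes at day 5 and 7 of 8 (87.5%) without doxycycline. No test of the difference from the 67 chaperones or from all coding genes was made.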

How the data were processed

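Myc CUT&Tag peak lists of 2 libraries were used, grouped by their titles. The build was hg38 and the tools were MACS2, deepTools, Bowtie2 and Trim Galore, per the submitters' processing notes. Their versions and settings, and any control in the peak calls, are details not given in the sources used here. Each deposited list covers 1 library. The authors deposited per peak a score (the integer part of 10 times the −log10 q-value), a fold over local background (a ratio), −log10 p-values and q-values, and the summit offset in bp. These served to rank peaks within a list and to recover fragments, from fold = (fragments + 1)/(background + 1) and p as a Poisson tail. Whole fragments came out, within 0.001 in −log10 p, for 99.96% of peaks at day 5 and 99.86% without doxycycline. The median peak had 12 summit fragments at day 5 and 11 without doxycycline. Intervals cover counting error only, and repeated PCR copies of a fragment could not be recognised.

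Gene spans and starts came from RefSeq GRCh38.p14, with a start for 60 of the 67 chaperones. Exons and introns were not separated. No test was planned or made, so counts stand beside those of all coding genes. Members and lists were chosen with earlier results of these data known, and DNAJB3 of 1 list had no match. All members with a peak are named; those of highest rank in both lists, at day 5 only, without doxycycline only, and a fixed set are described, and genes of other lists by rank. Overlap, assignment and recovery were tested on simulated data. Python 3.11.15, numpy 2.4.6, pandas 2.3.3 and scipy 1.17.1 were used.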

Additional observations from a re-analysis of the deposited data

Results flagged for a closer look

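Myc peaks on alternate haplotype sequences of the histocompatibility region of chromosome 6 numbered 87 at day 5 and 30 without doxycycline, a signal on sequences that the gene counts left out. HSPA1A, HSPA1B and HSPA1L lie in this region of the primary chromosome, where 5 peaks at day 5 and 1 without doxycycline fell within 500 kb of them. The annotation used does not place genes on the alternate sequences, so none of those peaks was given to a gene.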

How the results depend on the processing

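No paired analysis was possible because the groups compared hold 1 library each and no test was made. The choice of peaks moved the counts most. With the upper 50% of each list by rank, 14 chaperones had a peak at day 5, 6 without doxycycline, 6 in both, 8 at day 5 only and 0 without doxycycline only, where all coding genes stood at 15.3%, 8.02%, 6.88%, 8.44% and 1.14%; the cause was not tested. With equal numbers of peaks the counts were 14 at day 5, 8 in both, 6 at day 5 only and 6 without doxycycline only. All coding genes then stood at 15.7%, 10.1%, 5.55% and 4.30%. Of those last 6, all but DNAJC27 had a day 5 peak that the cut removed. Asking the peaks of a gene to overlap reciprocally by 50% left 8 in both (11.9%, near the 10.4% of all coding genes). An overlap of 1 bp left 13 (19.4%, against 12.7%). The number listed without doxycycline only was 2 within 2500 bp of a gene end (2.99%, against 1.73% of all coding genes). It was also 2 with the nearest gene only (2.99%, against 1.92%). The counts were also made within 500 or 2500 bp, with the nearest gene, with summits within 1 kb, with annotated starts or with all contigs. Across these settings the count at day 5 ran from 24 to 33 and that without doxycycline from 11 to 15. They are counts of 67 chaperones, or of 60 with annotated starts. The share of all coding genes moved too, from 22.3% to 30.1% at day 5 and from 11.5% to 16.0% without doxycycline. The 32 fragment values of named genes that were recomputed from the peak nearest an annotated start were identical. Only DNAJB4 and HSP90AA1, at day 5, had a second peak to choose from. The other values could not differ, so this is no check of them. Few fragments per summit limit all single-gene comparisons.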
